A study of Homo sapiens with 5 samples.

Results

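The Perseus-only dosage-constant sites were 1094 SF-1 peaks, among the 6616 peaks called at basal SF-1 dosage with an antibody named Perseus. A site was chosen by overlap alone: its basal Perseus peak shared at least 1 bp with a peak of the overexpressed Perseus list and none with either Millipore list. Peaks within 1 Mb of a run of at least 1 Mb of unknown bases in hg19 were left out, which removed 141 of 1235 peaks. "Constant" therefore means listed at both dosages, not equal binding. The overlaps that chose the sites are given as a description, without a test.

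The cells were H295R/TR SF-1, a subclone of the human adrenocortical tumor line H295R that carries a doxycycline-inducible SF-1 transgene besides its own SF-1. Basal chromatin came from cells without doxycycline and overexpressed chromatin from cells given it for 3 days, and the study asked how SF-1 dosage changes SF-1 binding. Chromatin of either dosage was immunoprecipitated with a Millipore or a Perseus antibody to SF-1 and sequenced (ChIP-seq). The 4 peak lists held 30372 peaks in all, each list stands for 3 libraries per the labels, and the 2 input libraries were not analysed here. No list has a replicate, its read depth is unknown, and both Perseus lists share an antibody, so the intervals below cover counting error over peaks only.

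SF-1, encoded by NR5A1, is a nuclear receptor of the adrenal cortex and gonads that drives the genes of steroid hormone synthesis. It binds DNA as a monomer, and its usual site is a nuclear receptor half-site extended by a few bases on its 5′ side. ChIP-seq peaks mark where fragments bound by the precipitated protein, directly or through other proteins, pile up on the genome.

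The site CAAGGTCA, the SF-1 word, was sought on both strands of a 300-bp window on each peak centre. It stood in 214 of the 1094 sites. The following windows are shown because they carry the word at well-ranked sites, 1 from a site over 10 kb from the outermost start of any protein-coding gene and 3 from sites within 1 kb of one. All are plus-strand GRCh37 (hg19) sequence, 5′ to 3′, with the SF-1 word or its reverse complement in capitals.
IDH3A: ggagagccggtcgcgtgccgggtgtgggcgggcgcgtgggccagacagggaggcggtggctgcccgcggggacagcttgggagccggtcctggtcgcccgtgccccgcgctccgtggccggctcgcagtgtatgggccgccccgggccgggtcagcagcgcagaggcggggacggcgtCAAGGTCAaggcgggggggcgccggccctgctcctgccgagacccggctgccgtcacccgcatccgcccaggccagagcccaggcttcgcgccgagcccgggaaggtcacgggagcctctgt
RBPMS2: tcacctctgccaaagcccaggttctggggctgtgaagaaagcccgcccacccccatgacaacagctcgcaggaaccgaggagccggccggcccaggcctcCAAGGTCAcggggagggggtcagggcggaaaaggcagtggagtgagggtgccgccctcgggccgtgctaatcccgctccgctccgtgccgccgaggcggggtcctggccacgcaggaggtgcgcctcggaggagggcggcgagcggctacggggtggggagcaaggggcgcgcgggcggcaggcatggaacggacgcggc
PPIF: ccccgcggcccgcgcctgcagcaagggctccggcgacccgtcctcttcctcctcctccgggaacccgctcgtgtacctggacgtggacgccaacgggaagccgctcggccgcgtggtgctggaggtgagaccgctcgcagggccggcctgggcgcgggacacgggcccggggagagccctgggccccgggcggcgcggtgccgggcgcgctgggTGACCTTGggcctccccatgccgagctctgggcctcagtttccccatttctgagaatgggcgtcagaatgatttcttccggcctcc
PDXK: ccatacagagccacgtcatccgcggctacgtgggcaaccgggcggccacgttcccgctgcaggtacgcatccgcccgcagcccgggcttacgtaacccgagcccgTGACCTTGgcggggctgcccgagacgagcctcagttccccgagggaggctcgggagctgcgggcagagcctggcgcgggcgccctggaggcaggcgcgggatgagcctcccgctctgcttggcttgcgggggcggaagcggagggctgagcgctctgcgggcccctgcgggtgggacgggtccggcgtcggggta

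The first peak centre lay in an intron of IDH3A, a subunit of the Krebs cycle enzyme isocitrate dehydrogenase (chr15:78441826-78442125). It was far from the outermost starts but 224 bp from the start of another transcript of a protein-coding gene. The other 3 peak centres lay in introns of RBPMS2, an RNA-binding protein gene (chr15:65066851-65067150), PPIF, which encodes the mitochondrial cyclophilin (chr10:81107376-81107675), and PDXK, the kinase that makes the active form of vitamin B6 (chr21:45139201-45139500). They were 788 bp, 300 bp and 375 bp downstream of those genes' starts. The peak at IDH3A ranked 633 in the basal and 666 in the overexpressed list, and the peak at RBPMS2 ranked 157 and 380. Other well-ranked sites with the word were, over 10 kb away, those in an intron of CEMIP2 (684 and 748) and 209408 bp from the start of ALDH1A1, a retinaldehyde dehydrogenase gene (755 and 437), and, at promoters, sites at the zinc finger gene ZNF805 (111 and 387) and at CAPN1, a calpain protease gene (487 and 265).

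The first result was how the sites fell out of the lists. In the basal Perseus list 1949 of 6616 peaks, or 29.5%, overlapped a peak of the overexpressed Perseus list, and 5359 peaks, or 81.0%, overlapped no Millipore peak. The 1094 sites were 16.5% of the list. They met 1088 different peaks of the overexpressed list. A further 698 sites, here called two-antibody dosage-constant sites, were listed at both dosages with Perseus and in at least 1 Millipore list. Another 4009 basal Perseus peaks were in no other list and are called single-list peaks. The Millipore lists held 238 sites of the mirror kind, listed at both dosages with Millipore and in no Perseus list. Classes of the basal Perseus list differed in rank and width. Median rank as a percent of that list was 34.9 for Perseus-only sites, 58.2 for single-list peaks and 27.2 for two-antibody sites. Median width was 199 bp, 149 bp and 199 bp. No comparison below was matched for rank.

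Basal and overexpressed peaks of a site were of similar size. Median width was 199 bp in both lists. The basal peak was the wider at 410 sites, the overexpressed peak at 401, and both were equally wide at 283. Peak centres lay a median of 25 bp apart and at most 450 bp. Starts fell on a 50-bp grid, so the smallest overlap possible was 49 bp, and 108 sites shared no more than that. Ranks ran from 1 to 6615 in the basal list and from 3 to 7409 in the overexpressed list. Spearman's rho between both ranks was 0.36 over 1094 sites, which share an antibody and a cell line. In the better-ranked 50% of both lists lay 474 sites, and 199 sites lay in the other 50% of both.

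**Figure D1:**
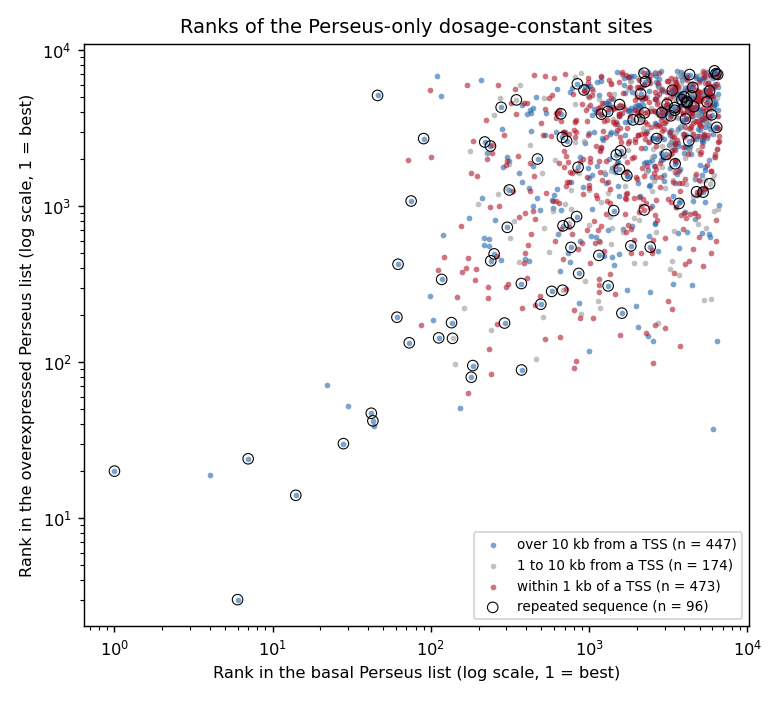
Each point is 1 of the 1094 sites, placed by its rank in the basal Perseus list (x axis, log scale) and in the overexpressed Perseus list (y axis, log scale), where 1 is the best rank. Colours give the distance to a TSS, and circles mark the 96 sites made mostly of repeated sequence, which include several of the best ranks on both axes.

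At the edge of the rule, 17 sites had a Millipore peak 1 bp away and 125 had one within 500 bp. Just across it, 47 of the two-antibody sites met a Millipore peak by 49 bp only. Most sites were far from any Millipore peak: the median distance was 25676 bp, and 750 of 1094 had none within 10 kb. The site nearest to a run of unknown bases was 1026471 bp from it, and the farthest peak left out was 993971 bp away.

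The sites were often promoters. Of the 1094 sites, 473 (43.2%, 95% Wilson interval 40.3 to 46.2) lay within 1 kb of a transcription start site (TSS), taken as the outermost start of a protein-coding gene. The share was 22.1% of 4009 single-list peaks, which is 21.1 percentage points lower (95% Newcombe interval of the difference 17.9 to 24.3). It was 35.2% of the two-antibody sites, a difference of 7.99 points (3.35 to 12.5), and 8.40% of the 238 Millipore-only sites, a difference of 34.8 points (29.7 to 39.0). Over 10 kb from every such start lay 447 sites (40.9%), and over 100 kb lay 169 (15.4%). Composition moved with these shares. Among single-list peaks and sites of the same GC content, in strata 10 points wide, the TSS difference was 1.78 points (−0.99 to 4.55), so it was not separable from GC content, whereas against the two-antibody sites it was 10.7 points (6.54 to 14.9).

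Sites at promoters lay close to the start. Within 200 bp of a TSS stood 258 sites. Of the 473 within 1 kb, 284 were centred on or downstream of the start and 189 upstream, with a median of 61 bp downstream. Starts of genes in both orientations lay within 1 kb of 66 of them (14.0%), against 13.5% of promoter peaks in the single-list class (difference 0.41 points, −3.31 to 4.42). Over all sites, the peak centre fell in an exon of a protein-coding gene at 26.1%, in an intron at 34.3% and outside such genes at 39.7%.

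Base composition set the sites apart from single-list peaks. Mean GC content of the window was 59.0% ± 13.6 (SD over 1094 sites), against 45.4% in windows 5 kb to each side, 48.6% ± 14.3 in single-list peaks and 60.8% ± 10.1 in two-antibody sites. A window with over 50% GC and a ratio of observed to expected CpG above 0.6, the composition of CpG islands, was found at 597 sites (54.6%). The share was 28.7 points lower in single-list peaks (25.5 to 31.9) and 10.3 points lower in two-antibody sites (5.56 to 14.98). It was 90.5% of sites within 1 kb of a TSS and 20.6% of sites over 10 kb away. Of the latter, 45 were within 1 kb of another transcript start of a protein-coding gene, and 31 of those 45 had this composition.

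The SF-1 word was concentrated at the sites. It stood in 19.6% of them (17.3 to 22.0) and in 2.70% of 2188 windows 5 kb away, a difference of 16.9 points (14.5 to 19.4). RefSeq promoters of the same length (GRCh38.p14) held it in 1.28% of 35116 cases. Sites over 10 kb from a TSS held it in 27.3% (122 of 447) and sites within 1 kb in 9.94% (47 of 473), 17.4 points apart (12.4 to 22.3). Within GC strata the gap was 6.92 points (0.83 to 13.0). By composition the contrast was larger: the word stood in 7.87% of the 597 sites with CpG island composition and in 33.6% of the other 497, a difference of −25.7 points (−30.4 to −21.0). Copies of the word gathered at the peak centres, and 111 of the 194 copies within 500 bp of the centres of sites over 10 kb away lay within 100 bp, or 57.2%, where an even spread gives 20%. At promoter sites it was 39 of 80, or 48.8%.

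**Figure D2:**
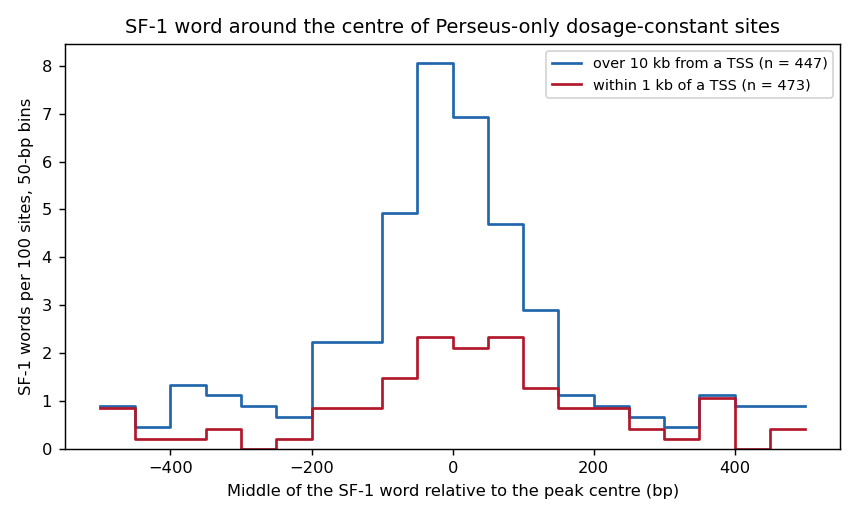
The y axis gives SF-1 words per 100 sites in 50-bp bins and the x axis the distance of the word's middle from the peak centre in bp. The blue line (447 sites over 10 kb from a TSS) peaks at 8.05 in the bin just before the centre, and the red line (473 sites within 1 kb) reaches 2.33.

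Against the other classes, the SF-1 word was less frequent than in sites seen with both antibodies, and its difference from single-list peaks depended on how peaks were grouped. The word stood in 26.5% of the two-antibody sites, 6.94 points above the Perseus-only sites (2.96 to 11.0), and in 35.8% of those over 10 kb from a TSS, against 27.3%, a difference of −8.51 points (−15.3 to −1.81). At promoters that difference was −1.45 points (−6.60 to 3.10), and within GC strata it was −6.70 points (−10.6 to −2.78) over all sites. A looser word, CAAGGNC, stood in 50.9% of the Perseus-only and 70.6% of the two-antibody sites, −19.7 points apart (−24.1 to −15.1). Against single-list peaks the pooled difference was 0.33 points (−2.24 to 3.06), with 19.2% of those peaks holding the word, whereas for CAAGGNC it was 8.91 points (5.57 to 12.2). For the SF-1 word the difference was larger than the pooled value at both distances compared. Peaks from 1 to 10 kb away were not compared on their own. Over 10 kb from a TSS the sites held the word more often by 4.44 points (0.18 to 9.03), and within 1 kb more often by 3.95 points (0.99 to 7.28), since single-list promoter peaks held it in 5.98%. Within GC strata it was 5.76 points (3.11 to 8.41). The pooled value mixes classes of unequal size, as 43.2% of the sites and 22.1% of single-list peaks were at promoters, where the word was less frequent. The 238 Millipore-only sites held the word in 22.3%, a difference of −2.71 points (−8.84 to 2.70) that turned to 7.44 points (1.08 to 13.8) within GC strata.

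**Figure D3:**
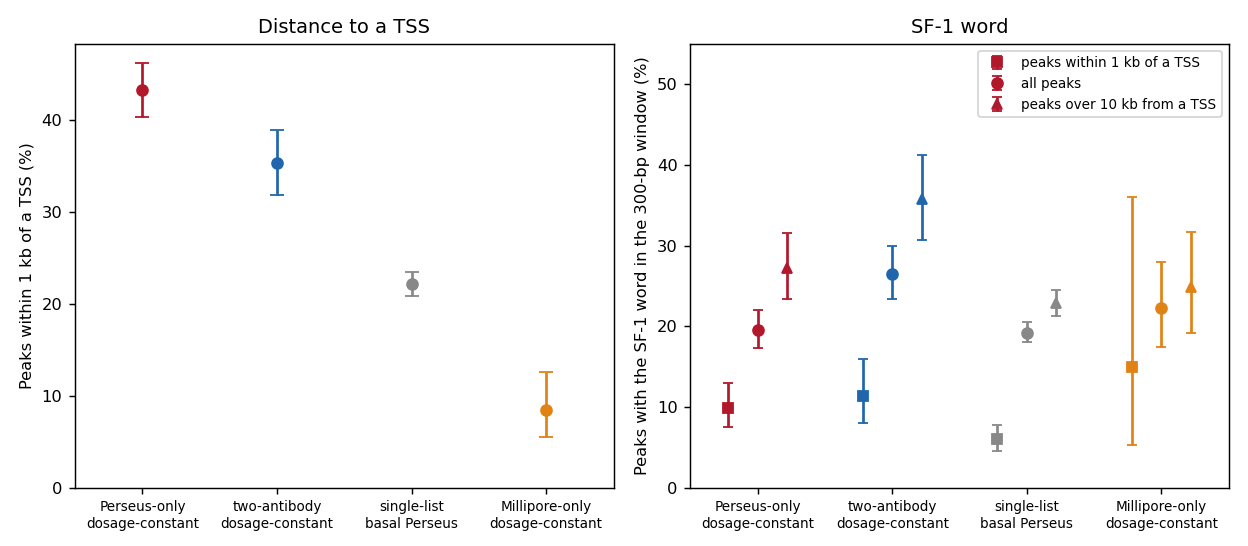
Left, the share of peaks within 1 kb of a TSS, and right, the share with the SF-1 word in the 300-bp window, for the 4 classes of sites (x axis), with 95% Wilson intervals as bars. Perseus-only sites have the largest promoter share of the 4 classes at 43.2%, and in each class the word is rarer within 1 kb of a TSS (squares) than over 10 kb away (triangles), with wide intervals for the 20 Millipore-only promoter peaks.

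At promoters the sites were searched for words of general promoter factors. The motifs were 9 short words, each searched on both strands without mismatch. GGGCGGG, the GC box bound by SP and KLF factors, stood in 48.8% of the 473 promoter sites, against 50.8% of 886 single-list promoter peaks, 2.96% of windows 5 kb away and 33.1% of RefSeq promoters. CCGGAAG, read by ETS factors, stood in 15.4%, 17.6%, 1.27% and 10.3%. The NRF1 word GCGCATGCG stood in 2.96% of promoter sites and 4.63% of single-list promoter peaks. The remaining words were AANATGGCG of YY1, TGACGTCA of CREB and ATF, GTCACGTG of USF and TFE factors, CCAATCA of NF-Y, ACTACAATT of ZNF143 and TATAAAAG of the TATA box, and none exceeded 5.50% of promoter sites. Against RefSeq promoters only shares are set side by side, without an interval of the difference. Site windows were centred on peaks, wherever these lay within 1 kb of a start, so their placement may differ from that of RefSeq windows. Some words had a lower share at promoter sites than in RefSeq promoters: CCAATCA stood in 4.65% against 6.95%, TATAAAAG in 0.21% against 1.27%, and ACTACAATT in 0 of 473 against 0.34%. For these 3 words the interval of the difference from windows 5 kb away held 0. More frequent than in RefSeq promoters were AANATGGCG (5.50% against 3.19%), GTCACGTG (5.29% against 2.40%), TGACGTCA (2.96% against 1.85%) and GCGCATGCG (2.96% against 1.92%). For each of them the interval of the difference from windows 5 kb away lay above 0. The 95% Wilson interval of the site share held the RefSeq share for ACTACAATT (0 to 0.81%), TGACGTCA and GCGCATGCG (1.77 to 4.91% each). It did not for the other promoter words. For 0 of 9 words did the 99.444% interval of the difference from single-list promoter peaks leave out 0, and the same held at 95%. A missing difference in these counts does not show that the promoters are alike. TTCAGCACC, the left part of the longer sequence that the repressor NRSF/REST binds, stood in 1 of 1094 sites and in 27 of 238 Millipore-only sites, a difference of −11.3 points (−18.8 to −6.40 at the 99.706% level used for the 17 words other than that of SF-1). The left part was also infrequent in single-list peaks, with 14 of 4009, and in windows 5 kb away, with 5 of 2188. The right part, GGACAGCGC, stood in 7 of 1094 and 4 of 238, −1.04 points apart (−5.78 to 0.70). It stood in 1 of 2188 windows 5 kb away. The two-antibody sites, which the rule keeps out of this class, held the left part in 5 of 698 and the right part in 10 of 698. Both intervals of the difference from the Perseus-only sites held 0.

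**Figure D4:**
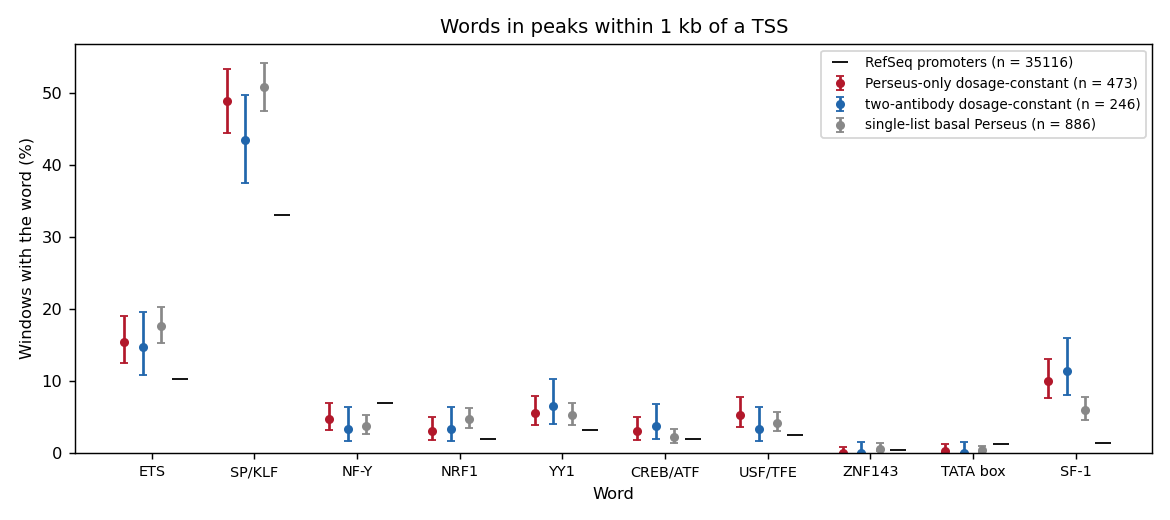
The y axis gives the percent of 300-bp windows with each word (x axis) among peaks within 1 kb of a TSS, with 95% Wilson intervals as bars, and black dashes give RefSeq promoters. The GC box of SP/KLF leads in all 3 classes, at 48.8% in Perseus-only sites, and the SF-1 word at the right stands at 9.94% in Perseus-only and 5.98% in single-list promoter peaks.

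The best-ranked sites were mostly repeated sequence without the SF-1 word. Repeated sequence means that over 50% of the 25-base words of a peak occur more than once in the genome. It made up 96 sites (8.78%), against 5.49% of single-list peaks (difference 3.29 points, 1.58 to 5.23), 2.01% of two-antibody sites (6.77 points, 4.74 to 8.76) and 0 of 238 Millipore-only sites, where the upper bound was 1.59%. The worst rank of a site is the larger of its 2 ranks, taken as numbered in lists of 6616 and 7453 peaks. Of the 20 sites with the best worst rank, 12 were repeated sequence, and 40 sites ranked better than any site that held the SF-1 word. Of the best 10, 7 were repeated and 0 held the word. The top site was chr11:48804951-48805199, intergenic, at ranks 6 and 3. The site at chr1:569701-570149, rank 1 in the basal list and 20 in the overexpressed list, lay on the pseudogene MTCO3P12, a nuclear copy of mitochondrial DNA. There 66.6% of the 25-base words were also in the mitochondrial genome, as were 63.3% at chr11:10530751-10531199 (ranks 7 and 24). These were among 4 such sites, and 0 other basal Perseus peaks were like them. The best-ranked site not counted as repeated was chr5:134259651-134260499 (ranks 4 and 19), on the pseudogene MTND6P4. There 36.9% of the 25-base words were repeated and 26.7% were also in the mitochondrial genome. Also outside repeats, a 749-bp peak in an intron of the glycosyltransferase gene GALNT2, chr1:230218551-230219299, stood at ranks 44 and 39. Whether repeated copies raise the ranks was not tested, and read mapping at repeats is not described in the sources used here.

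Share of the SF-1 word rose down the ranking. The sites were ordered by their worst rank and cut into 4 sets of like size. These sets held the word in 14.2%, 18.2%, 20.9% and 24.9%. The better-ranked 547 sites held it in 16.3% and the other 547 in 22.9%, −6.58 points apart (−11.3 to −1.88). Without repeated sequence the gap was −6.33 points (−11.3 to −1.37). Promoter share moved in the opposite direction, from 46.4% to 40.0% (6.40 points, 0.53 to 12.2), as did CpG island composition, from 60.5% to 48.6%. Among sites over 10 kb from a TSS the word's gap was −6.33 points (−14.4 to 1.96), or −2.68 points (−12.0 to 6.94) without repeated sequence. Among promoter sites it was −0.20 points (−5.82 to 5.21). So no difference by rank was resolved among sites over 10 kb away or among those within 1 kb. The 174 sites from 1 to 10 kb were not compared by rank on their own. Whether the pooled gap goes away at a fixed distance is therefore not shown.

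**Figure D5:**
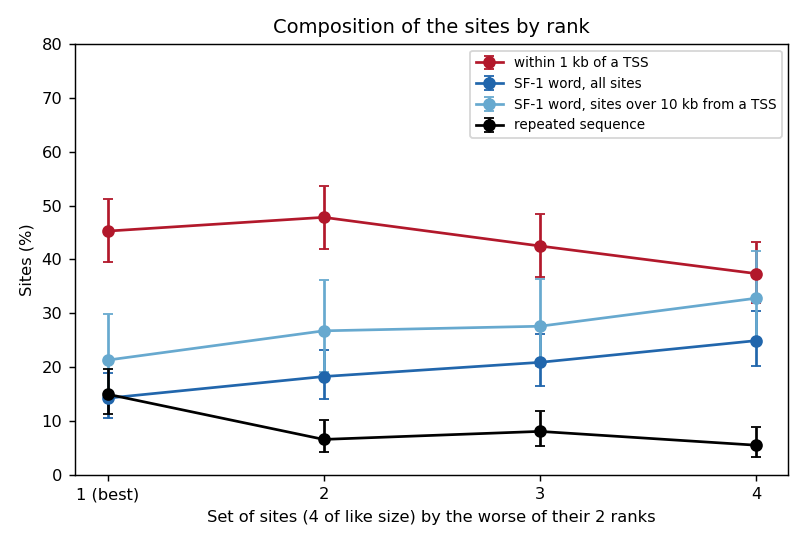
The y axis gives percent of sites, with 95% Wilson intervals as bars, for 4 sets of sites of like size ordered by the worse of their 2 ranks (x axis, best at the left). The SF-1 word rises from 14.2% to 24.9%, and repeated sequence falls from 14.96% to 5.49%.

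One site held the word 5 times. It lay in an intron of SLC66A2 at chr18:77679901-77680299, at ranks 768 and 544, with 87.5% of its 25-base words repeated and a Millipore peak 251 bp away. Its window, chosen after its values were seen, is shown because the word recurs in a tandem repeat.
SLC66A2: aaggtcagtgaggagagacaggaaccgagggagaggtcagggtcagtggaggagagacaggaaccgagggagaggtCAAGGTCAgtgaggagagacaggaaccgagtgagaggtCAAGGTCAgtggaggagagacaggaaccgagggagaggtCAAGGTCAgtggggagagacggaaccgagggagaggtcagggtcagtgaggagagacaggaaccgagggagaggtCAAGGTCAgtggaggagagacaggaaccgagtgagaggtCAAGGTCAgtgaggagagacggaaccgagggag
In this window (chr18:77679951-77680250) every copy read CAAGGTCA on the plus strand. Among all sites, 207 held the word once and 7 more than once.

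Of 20163 protein-coding genes, 560 had a site within 1 kb of the TSS (2.78%) and 862 within 10 kb (4.28%). None of 30 genes of steroidogenesis and known SF-1 targets had a site within 1 kb, a count too small to set apart from the share over all genes. Within 10 kb the only one was HSD17B3, the testicular 17-beta-hydroxysteroid dehydrogenase, whose site (chr9:99056001-99056099, ranks 3233 and 2500) was 8408 bp inside the gene. None of the 4 NR5A and NR0B genes had a site within 10 kb. Among 29 cholesterol genes, sites stood 66 bp upstream of IDI1, the isopentenyl diphosphate isomerase (ranks 3224 and 4907), 406 bp upstream of MVD, the mevalonate diphosphate decarboxylase (ranks 2745 and 6138), and 9651 bp downstream of the start of SOAT1, which esterifies cholesterol (ranks 817 and 6691). Among 24 genes of cAMP and protein kinase A signalling, sites lay 457 bp downstream of the start of PRKAR2A, a regulatory subunit, 1086 bp downstream of that of ADCY1 and 1598 bp upstream of ADCY7, both adenylate cyclases. The sites at ADCY1 and ADCY7 held the SF-1 word, and those named at HSD17B3, IDI1, MVD, SOAT1 and PRKAR2A did not.

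Genes of energy metabolism and translation had sites at their starts. Of 94 oxidative phosphorylation genes 9 (9.57%) had a site within 1 kb, as had 7 of 71 translation factor genes (9.86%), 5 of 78 mitochondrial ribosomal protein genes (6.41%) and 4 of 89 ribosomal protein genes (4.49%). The best-ranked in the first group were at SDHB and UQCRH, of respiratory complexes II and III, COX5A of cytochrome oxidase and NDUFV2 of complex I, with basal ranks from 2163 to 3809, and none of these 4 held the SF-1 word. EIF4B, an initiation factor, had a site at ranks 647 and 1884, and RPS29, of the small ribosomal subunit, at 802 and 216. The word stood in the sites of MRPL12, MRPS6, MRPL47 and EIF4EBP1. Cell cycle genes had 4 of 85, led by MCM4, a replicative helicase subunit, at ranks 1054 and 193. Zinc finger genes had 17 of 476 (3.57%), led by ZNF805 at ranks 111 and 387, which held the SF-1 word, and ZNF76 at 429 and 667. Immediate early genes had 2 of 23, MYC (ranks 1787 and 2610) and the orphan receptor NR4A1 (5290 and 2789). Adrenocortical tumor genes had 1 of 20, ARMC5, mutated in macronodular adrenal hyperplasia (2854 and 1542). Proteasome genes had 2 of 39 (PSMC6 and PSMB5), splicing factor genes 1 of 49 (SRSF6) and histone genes 1 of 68 (H1-10). Olfactory receptor genes had 0 of 415 and HOX genes 0 of 39. These counts are descriptions beside the 2.78% of all genes, and the lists were not compared with genes of like promoter composition. Other classes also had peaks within 1 kb of genes for oxidative phosphorylation, translation factors, mitochondrial ribosomal and ribosomal proteins. In that order, single-list peaks (886 at promoters) met 9, 7, 3 and 5 genes, and two-antibody sites (246 at promoters) met 7, 1, 4 and 0.

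By chromosome, chromosome 9 held the most sites, 120 of 1094 (10.97%), against 8.91% of single-list peaks (2.06 points, 0.12 to 4.23). Among 24 chromosomes compared with unadjusted 95% intervals, chromosome 19 (3.10 points, 1.44 to 5.004) and chromosome 16 (2.76 points, 1.39 to 4.38) also held a larger share of the sites. Chromosomes 10 (−2.20 points, −3.10 to −1.09), 5 (−1.74 points, −3.16 to −0.09) and 4 (−1.62 points, −2.63 to −0.38) held a smaller one. Of the 96 sites of repeated sequence, 17 were on chromosome 9 and 12 on chromosome 16. Copy number of these chromosomes in the cell line was not tested. Few sites were close to each other, with 96 having another within 10 kb and 51 within 1 kb.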

How the data were processed

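ChIP-seq for SF-1 was done in H295R/TR SF-1 cells at 2 dosages with 2 antibodies. Per their methods section, ELAND was used by the authors to place the reads on hg19, and peaks were called with CisGenome SeqPeak from triplicates of each condition with input DNA as control. The labels give 3 libraries and 1 list per group, and how the libraries were combined is not given in the sources used here. The labels' processing notes name CASAVA 1.6. Each deposited list gives peak positions and a score that is the rank of the peak within its list, counted from 1. A second deposited score is the same for every peak and was not used. What the rank was computed from, the read depth and any filter on repeats or duplicates are not given in the sources used here. A single list per group hides the spread between libraries. Ranks of different lists are not on 1 scale. The worst rank used them as numbered, without scaling to the length of each list.

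Sites and classes were defined by overlaps of at least 1 bp. Windows of 300 bp on the peak centre and windows 5 kb to each side were read from GRCh37, which is hg19, and TSS from GENCODE 44 mapped to it. The 25-base words of the peaks were counted in the same genome. Shares carry 95% Wilson intervals and differences Newcombe intervals, with no p-value. For the 9 promoter words the level was 99.444%, and for the 17 words other than that of SF-1 it was 99.706%. Differences within GC strata used Mantel-Haenszel weights. The named peaks were the 10 sites with the best worst rank and the 5 best each over 10 kb and within 1 kb of a TSS that held the SF-1 word. Named genes were all with a site within 10 kb in the lists for steroidogenesis, NR5A and NR0B, cholesterol and cAMP signalling, and the 4 best-ranked of each other list. Sequences overlapping untranslated regions were not printed, and 2 of the named peaks are not reported here. The sites, words and gene lists were chosen with earlier results of these data known. The overlap, word search and intervals were tested on simulated data. Alternatives covered the overlap, the distance to Millipore peaks, better-ranked lists, large gaps, TSS definitions, forms of the word and GC strata. The software was samtools 1.23.1, numba 0.67.0, matplotlib 3.10.9, pysam 0.24.0 and scipy 1.17.1 under Python 3.11.15.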

Additional observations from a re-analysis of the deposited data

How the results depend on the processing

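Among 9 differences between shares and the number of sites, most alternatives kept the direction and the side of 0. The number of sites was 553 when only the better-ranked 50% of each list was used. The promoter difference from single-list peaks was 1.78 points within GC strata, and that from two-antibody sites was 4.09 points with peaks beside large gaps kept and 3.55 points at a distance of 10 kb, each with an interval that held 0. The SF-1 word difference from single-list peaks had no stable sign when pooled: it was −0.16 points with 50% overlap required, −0.36 with no Millipore peak within 500 bp, −2.85 in the better-ranked lists, −1.49 with gaps kept and −0.41 for AAGGTCA. Its interval lay above 0 for CAAGGNC (8.91 points), the 9-base consensus (3.73), the peak as deposited (2.72), GC strata (5.76), peaks over 10 kb away (4.44) and peaks within 1 kb (3.95). The difference from two-antibody sites within 1 kb of a TSS was −1.45 points. That from Millipore-only sites was −5.88 points with 50% overlap and −7.49 for CAAGGNC, both with intervals below 0, and turned to 7.44 within GC strata and 2.43 over 10 kb away. The causes were not tested. Leaving out repeated sequence, chosen after seeing the data, left 998 sites and changed no side of 0. Each group is 1 list that stands for all of its libraries, so no analysis paired by library was possible and no library could be left out. Intervals of differences between sites and their own windows 5 kb away treat both as independent, though they are paired by site. Depth behind the lists is unknown, so a site absent from a Millipore list is not shown to be unbound there.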
